A study of Bubalus bubalis with 6 samples.

Results

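The small heat shock proteins and their partners in muscle chaperoning were examined in buffalo (Bubalus bubalis) muscle stem cells (MuSCs) as the cells passed from proliferation to differentiation. The genes were chosen by symbol from 10 names, HSPB1, HSPB2, HSPB3, HSPB6, HSPB7, HSPB8, CRYAB, BAG3, UNC45B and SMYD1. The deposited gene table listed 9 of the 10 among its 24616 genes. HSPB2 was not listed under its symbol and was not analysed here. PolyA-Seq, a sequencing of polyadenylated RNA, was available for 6 samples of muscle-derived stem cells. The 3 GM samples were labelled as proliferating and kept in growth medium with fetal bovine serum, and the 3 DM samples were labelled as differentiating and kept in a medium with horse serum. All of them were primary cultures from the longissimus muscle of fetal buffalo, with no transgene, and the labels give neither the number of animals, nor the hours in differentiation medium, nor a cell sort. The labels do not say whether the samples of a group were separate cultures, so the p-values measure the spread between these samples, which may be technical.

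Small heat shock proteins share an alpha-crystallin domain, form large oligomers and hold unfolding proteins in a soluble state without using ATP. Several of them are abundant in striated muscle, where they bind actin, desmin, filamin and titin. BAG3 couples HSPB8 and the HSP70 chaperones to the removal of damaged filamin by autophagy. UNC45B, with HSP90, folds the motor head of muscle myosin, and SMYD1 is a lysine methyltransferase needed for the assembly of myosin into thick filaments.

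Gene counts summed to between 35615864 and 40305237 per sample. Replicates differed by more than sampling noise, and the distance was largest between DM3 and the other DM samples, where the chi-square divided by its degrees of freedom reached 43.3. The skeletal muscle identity of the cultures was checked with 11 marker genes, of which 7 rose, 1 fell and 3 did not pass both thresholds. The summed level of these markers was 2854 to 3457 CPM (counts scaled to a common library total) in GM samples and 7521 to 10490 CPM in DM samples. CKM, the muscle creatine kinase, rose from 1.19 ± 0.537 CPM to 94.9 ± 10.9 CPM (SD, n = 3).

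Most of the chaperone genes moved with differentiation, and they did not move in 1 direction. In DM samples 6 of the 9 genes rose (HSPB3, HSPB8, SMYD1, CRYAB, UNC45B and HSPB6), HSPB7 fell, and HSPB1 and BAG3 stayed within a fold change of 2. A gene was called when its log2 fold change exceeded 1 in either direction and its p-value, from edgeR's quasi-likelihood test with Benjamini-Hochberg adjustment over 15576 tested genes, was below 0.05. Of all tested genes 25.3% were called, 15.0% as higher and 10.3% as lower in DM samples. The median log2 fold change was 1.77 over the 9 genes and 0.03 over all tested genes. An adjusted p-value under 0.05 at any fold change was reached by all 9 genes and by 63.0% of all tested genes. No overlap in CPM between the groups was seen for the 9 genes, nor for 68.8% of all tested genes. Since RNA was taken from whole cultures, fewer cells of a type and less RNA per cell cannot be told apart.

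**Figure D1:**
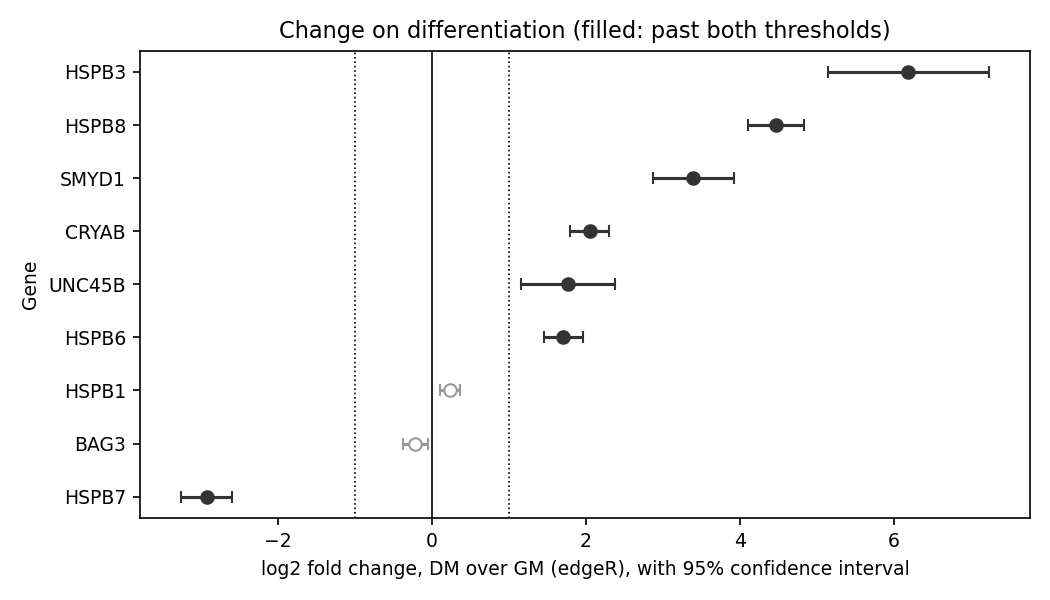
Log2 fold change of each gene in DM over GM samples (x axis) with its 95% confidence interval, n = 3 per group. Filled points passed both thresholds and dotted lines mark a log2 fold change of 1 in either direction. HSPB3, at 6.19, and HSPB7, at -2.92, stand at the ends, and HSPB1 and BAG3 lie between the dotted lines.

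CRYAB encodes alpha B-crystallin, a chaperone of desmin and titin that is found in the lens and in striated muscle. Its raw counts were 1695, 1232 and 1534 in GM1, GM2 and GM3 and 4905, 5741 and 5832 in DM1, DM2 and DM3. Every DM sample stood far above every GM sample, and GM2 was the lowest sample. The level rose from 37.0 ± 6.38 to 153 ± 6.95 CPM (log2 fold change 2.05, SE 0.11, edgeR adjusted p = 1.06e-07). HSPB1, also known as HSP27, is a widely expressed small heat shock protein that regulates actin filaments. Its counts were 6287, 6893 and 6256 in GM samples and 6455, 6948 and 6938 in DM samples, nearly equal before scaling. After scaling the level was 161 ± 7.94 CPM in GM samples and 189 ± 1.83 CPM in DM samples, a 1.18-fold difference with a 95% interval of 1.07 to 1.29 (edgeR adjusted p = 0.00545). HSPB1 was therefore above its GM level by less than the minimum fold change. Scaling by library size alone gave it a log2 fold change of 0.14 and an adjusted p of 0.0633 in edgeR, which no longer passed.

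HSPB7, a small heat shock protein of heart and skeletal muscle that binds filamin C, was the gene that fell. It had 4188, 4441 and 3525 counts in GM samples and 410, 384 and 628 counts in DM samples. The lowest GM sample held several times as many counts as DM3, the highest DM sample. The level was 100.2 ± 6.92 CPM in GM samples and 13.2 ± 3.37 CPM in DM samples, 7.59-fold lower (log2 fold change -2.92, SE 0.15, edgeR adjusted p = 6.38e-08). Among the tested genes the fall of HSPB7 ranked 213 by log2 fold change. In GM samples 3.19% of tested genes had a higher RPKM (read count scaled by gene length and by the total of the sample) than HSPB7, and in DM samples 24.0% did. Filamin C itself (FLNC), the large actin crosslinker of the muscle Z-disc, fell from 1692 ± 51.6 to 572 ± 58.8 CPM (log2 fold change -1.56, SE 0.08, edgeR adjusted p = 5.91e-08).

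The other 3 small heat shock proteins rose from lower levels. HSPB6, also known as HSP20, is abundant in all muscle types and had 980, 1098 and 1008 counts in GM samples and 2523, 2771 and 3723 counts in DM samples. DM3 was the highest of them. The level rose from 25.5 ± 1.65 to 83.7 ± 14.7 CPM (log2 fold change 1.71, SE 0.12, edgeR adjusted p = 4.51e-07). HSPB8, or HSP22, the small heat shock protein that binds BAG3, had 136, 88 and 144 counts in GM samples and 2255, 2675 and 2369 counts in DM samples. In CPM, DM3 was the lowest of the DM samples here. The level rose 22.2-fold, from 3.06 ± 0.862 to 68.0 ± 4.65 CPM (log2 fold change 4.48, SE 0.16, edgeR adjusted p = 7.78e-09). HSPB3, a muscle small heat shock protein that forms an oligomer with HSPB2, had 6, 0 and 10 counts in GM samples and 290, 311 and 473 counts in DM samples. It was close to absent in GM samples, with no count at all in GM2. The log2 fold change was 6.19 (SE 0.47, 95% interval 5.14 to 7.24, edgeR adjusted p = 1.06e-06), and the levels were 0.136 ± 0.132 and 9.96 ± 2.45 CPM. This rise ranked 85 among the tested genes. Its size rested on few GM counts, and it was 5.60 without GM2 and 7.04 without GM3.

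**Figure D2:**
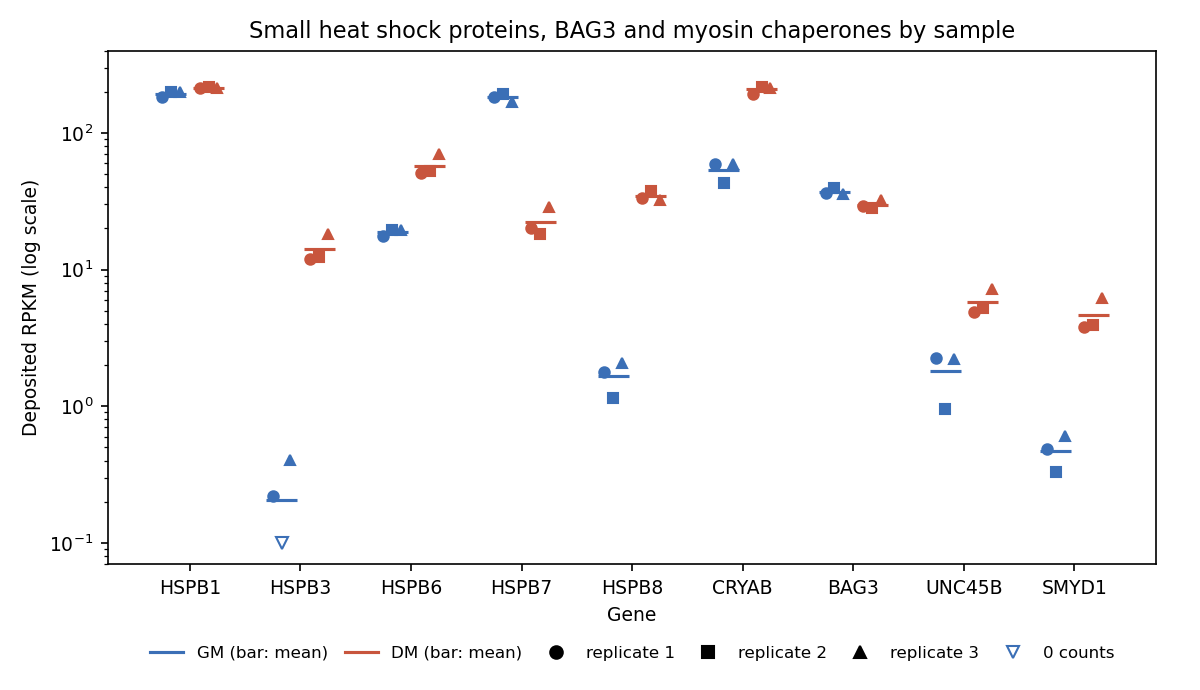
Deposited RPKM (log axis) of each gene in each sample, with a bar at the mean of 3 samples. HSPB1 and HSPB7 head the GM samples at 194 and 183 RPKM, HSPB1 and CRYAB head the DM samples at 214 and 208 RPKM, and the open triangle, placed at the foot of the axis, is GM2 with 0 counts of HSPB3.

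Per unit of gene length, the order of the genes changed between the conditions. In GM samples the highest levels were those of HSPB1 (194 ± 9.22 RPKM) and HSPB7 (183 ± 12.4 RPKM), whose samples overlapped. CRYAB at 53.8 ± 9.38, BAG3 at 37.1 ± 1.91 and HSPB6 at 18.9 ± 1.19 RPKM followed without overlap. The lowest were UNC45B (1.81 ± 0.741 RPKM) and HSPB8 (1.66 ± 0.469 RPKM), which overlapped, and SMYD1 (0.473 ± 0.136 RPKM) and HSPB3 (0.207 ± 0.201 RPKM), which overlapped as well. In DM samples HSPB1 (214 ± 3.44 RPKM) and CRYAB (208 ± 12.8 RPKM) overlapped at the top, ahead of HSPB6 (57.8 ± 10.3 RPKM) and HSPB8 (34.5 ± 2.79 RPKM). HSPB7 (22.5 ± 5.73 RPKM) then overlapped both BAG3 (30.0 ± 1.97 RPKM) above it and HSPB3 (14.2 ± 3.52 RPKM) below it. UNC45B (5.78 ± 1.30 RPKM) and SMYD1 (4.65 ± 1.33 RPKM) came last and overlapped. The lengths are those of the deposited annotation, from 568 bases for HSPB7 to 5834 bases for SMYD1, and the RPKM levels carry any error in them.

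The 6 listed small heat shock proteins together gave 452 ± 5.36 RPKM in GM samples and 552 ± 27.8 RPKM in DM samples, 1.22 times as much. Within this pool HSPB7 gave way to CRYAB. The share of HSPB7 was 41.2, 42.4 and 37.6% in GM1, GM2 and GM3 and 3.88, 3.26 and 5.02% in DM1, DM2 and DM3. The share of CRYAB was 13.3, 9.39 and 13.1% in GM samples and 37.1, 39.0 and 37.2% in DM samples. HSPB1 held the largest mean share in both conditions, 43.1 ± 1.73% in GM samples and 38.9 ± 1.91% in DM samples. HSPB6 went from 4.18 ± 0.236% to 10.4 ± 1.42%, HSPB8 from 0.369 ± 0.107% to 6.26 ± 0.572%, and HSPB3 from 0.0462 ± 0.0447% to 2.55 ± 0.526%. For each of the 6 shares and for the sum, the 2 groups stood apart without overlap, and the two-sided exact permutation test gave p = 0.1 (0.1 after Benjamini-Hochberg adjustment over the shares), the smallest value that 3 against 3 samples allow. The shares of a sample sum to 100%, so they are not independent of each other. Shares of counts in place of RPKM kept each direction, but the difference between DM and GM samples was then -12.5 percentage points for HSPB1, against -4.16, and 12.2 points for HSPB8, against 5.89.

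**Figure D3:**
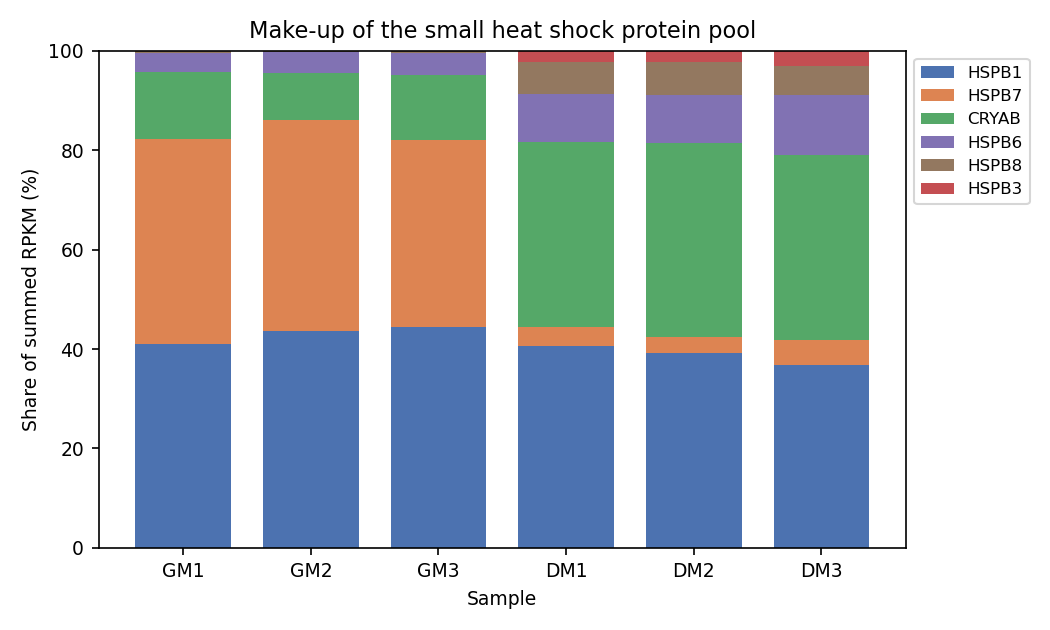
Share of each small heat shock protein in the summed RPKM of the 6 listed genes (y axis, percent), 1 bar per sample. HSPB7 takes 37.6 to 42.4% of the GM bars and 3.26 to 5.02% of the DM bars, and CRYAB takes 9.39 to 13.3% and 37.1 to 39.0%.

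BAG3, the co-chaperone that brings HSPB8 to the HSP70 machine, had 3584, 3919 and 3248 counts in GM samples and 2581, 2622 and 3043 counts in DM samples. Its level was 88.8 ± 4.72 CPM in GM samples and 76.8 ± 5.31 CPM in DM samples (log2 fold change -0.21, 95% interval -0.37 to -0.05, edgeR adjusted p = 0.0269). The groups did not overlap in CPM, yet the difference was small and edgeR's adjusted p was 0.110 without GM2, 0.112 without DM2 and 0.0767 without DM1. HSPB8 thus rose while BAG3 stayed under the fold minimum. The ratio of HSPB8 to BAG3 in RPKM was 0.0493, 0.0292 and 0.0576 in GM samples and 1.13, 1.33 and 1.01 in DM samples, a log2 difference of 4.72 (exact permutation p = 0.1, the smallest possible). The ratio of CRYAB to HSPB1, another pair of small heat shock proteins, went from 0.324, 0.215 and 0.295 to 0.914, 0.994 and 1.01, a log2 difference of 1.83 (exact permutation p = 0.1). These ratios were 2 of 3 tested, and the adjusted p of each was 0.1.

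Of the other genes of the BAG3 pathway of chaperone-assisted selective autophagy, 14 were tested, 3 rose, 2 fell and 9 did not pass both thresholds, with a median log2 fold change of 0.04. DNAJB4, a J-domain partner of HSP70, rose from 16.1 ± 0.689 to 42.9 ± 7.84 CPM (log2 fold change 1.42, SE 0.12, edgeR adjusted p = 2.69e-06). SQSTM1, the autophagy receptor p62, rose from 178 ± 3.16 to 441 ± 39.3 CPM, and MAP1LC3A, an autophagosome protein, rose from 25.5 ± 1.99 to 56.6 ± 2.32 CPM. FLNC, the client of the pathway, and HSPA8, the constitutive HSP70, were the members that fell. HSPA8 went from 2788 ± 31.6 to 1111 ± 16.9 CPM (log2 fold change -1.33). The ubiquitin ligase STUB1 and the actin-linked adaptor SYNPO2 did not pass the fold minimum, with log2 fold changes of -0.21 and 0.46. SQSTM1, MAP1LC3A, HSPA8, STUB1 and SYNPO2 were chosen for mention after their values were seen. HSPA1A, HSPA2, DNAJB6 and MAP1LC3B were not listed under these symbols, and DNAJB1 had 0 counts in all 6 samples. Whether reads could be assigned to the DNAJB1 entry was not checked, so absence of its RNA cannot be concluded.

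Both myosin chaperones rose. UNC45B had 292, 124 and 260 counts in GM samples and 556, 623 and 892 counts in DM samples. GM2 stood well below the other GM samples and DM3 above the other DM samples. The level rose from 5.63 ± 2.29 to 19.2 ± 4.26 CPM (log2 fold change 1.77, SE 0.28, 95% interval 1.16 to 2.39, edgeR adjusted p = 0.000229), and this fold change was 1.47 without GM2 and 1.58 without DM3. SMYD1 had 113, 78 and 129 counts in GM samples and 790, 860 and 1377 counts in DM samples. The same samples marked its extremes. It rose 10.5-fold, from 2.67 ± 0.765 to 28.0 ± 7.95 CPM (log2 fold change 3.40, SE 0.24, edgeR adjusted p = 5.65e-07). UNC45A, the general cell paralog of UNC45B, had 135 ± 1.37 CPM in GM samples and 177 ± 12.6 CPM in DM samples and was not called (log2 fold change 0.40). The ratio of UNC45B to UNC45A was 0.0518, 0.0217 and 0.0509 in GM samples and 0.0893, 0.103 and 0.128 in DM samples, so that the general form stayed the more abundant in all 6 samples (log2 difference 1.46, exact permutation p = 0.1).

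Genes listed around myosin folding, which are HSP90 co-chaperones and ubiquitin ligases, moved in opposite directions. No HSP90 co-chaperone of the list rose. Of 9 tested, 3 rose and 4 fell, with a median log2 fold change of -0.49. The genes that rose were the MURF ubiquitin ligases of the sarcomere, among them TRIM54 (from 2.79 ± 1.02 to 17.6 ± 3.99 CPM, log2 fold change 2.66, SE 0.26, edgeR adjusted p = 5.86e-06) and TRIM55 (from 11.9 ± 1.49 to 49.1 ± 5.20 CPM, log2 fold change 2.04, SE 0.11, edgeR adjusted p = 9.98e-08), with TRIM63 at a log2 fold change of 1.64. The genes that fell were general HSP90 co-chaperones, FKBP4 at -1.80, PTGES3 at -1.34, STIP1 at -1.25 and AHSA1 at -1.01 on the log2 scale. AHSA1 stood at the edge and lost its call in 5 of 14 alternatives, among them without GM2 and without DM2, over a range of -1.10 to -0.95. CDC37, the co-chaperone for kinases, had a log2 fold change of -0.49 and was not called. TRIM63, CDC37 and the 4 genes that fell were chosen for mention after their values were seen. HSP90AA1, HSP90AB1 and NACA were not listed under these symbols, so the HSP90 genes themselves were not compared.

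Most of the listed clients and scaffolds of these chaperones rose, and those that rose were all genes of the sarcomere. Of 16 tested, 12 rose, 1 fell and 3 did not pass both thresholds, with a median log2 fold change of 3.11. The 12 were the myosin heavy chains named below and MYOM1, MYOM2, MYOM3, ACTN2 and LDB3. No intermediate filament gene of the list rose. MYH2 and TTN, the titin gene, were not listed under these symbols. MYH8, the perinatal myosin heavy chain, rose from 2.01 ± 0.798 to 292 ± 59.1 CPM (log2 fold change 7.19, SE 0.24, edgeR adjusted p = 5.79e-09). MYH1, a fast adult myosin heavy chain, had 0, 1 and 3 counts in GM samples and 200, 258 and 92 counts in DM samples. Myosin heavy chain genes are close in sequence, and how reads shared between them were assigned is not given in the sources used here. The intermediate filament client DES had 2274 ± 103 CPM in GM samples and 2051 ± 323 CPM in DM samples (log2 fold change -0.15, edgeR adjusted p = 0.217), and NES, the filament of immature muscle cells, fell (log2 fold change -1.07), with the call lost without DM1 or DM2 and against a null of 2-fold change. VIM and SYNM, the other intermediate filament genes of the list, had log2 fold changes of -0.15 and 0.09 and were not called. DES, NES, VIM, SYNM, MYOM1, MYOM2, MYOM3, ACTN2 and LDB3 were chosen for mention after their values were seen. The 7 listed sarcomeric myosin heavy chains (MYH1, MYH3, MYH4, MYH6, MYH7, MYH7B and MYH8) summed to 64.7 ± 22.5 RPKM in GM samples and 453 ± 125 RPKM in DM samples, 6.99 times as much. Set against that sum, UNC45B had 29.1, 24.7 and 28.5 RPKM per 1000 RPKM of myosin in GM samples and 13.6, 12.8 and 12.2 in DM samples. SMYD1 had 6.20, 8.56 and 7.80 per 1000 in GM samples and 10.7, 9.72 and 10.4 in DM samples. The ratio for UNC45B was thus lower, and that for SMYD1 higher, in every DM sample than in every GM sample. These ratios were added after the values had been seen and were not tested, and the direction for SMYD1 turned when MYH3 was left out of the sum (GM over DM 2.16, against 0.733 with it).

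**Figure D4:**
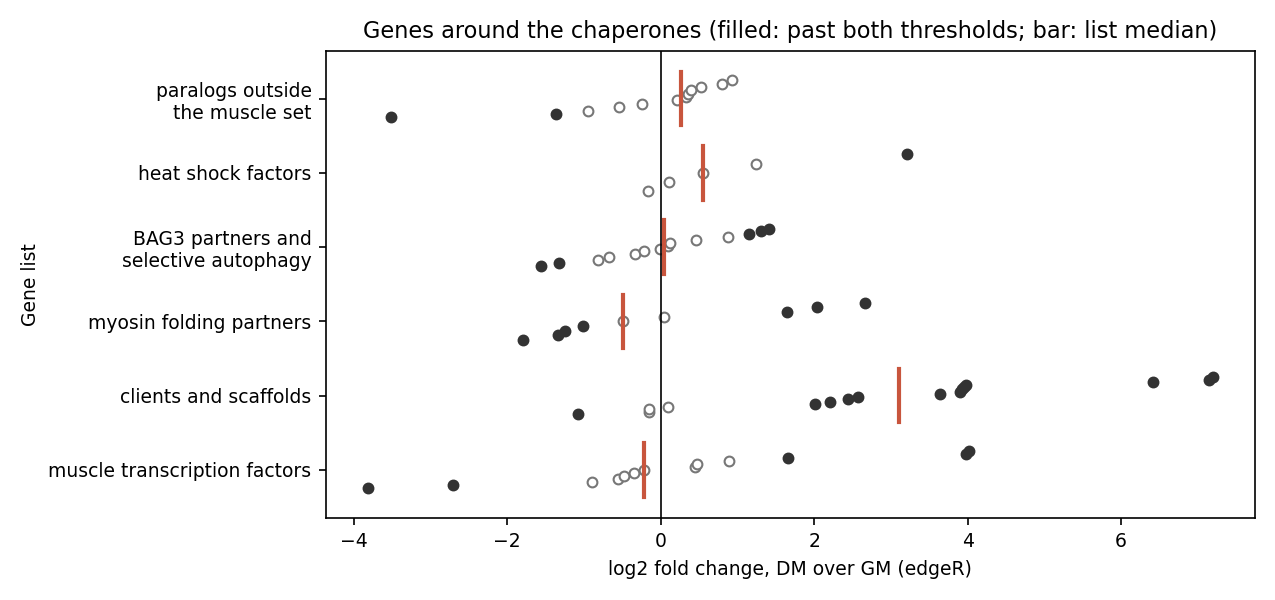
Log2 fold change in DM over GM samples (x axis) of each tested gene in 6 lists of genes around the chaperones (y axis). Filled points passed both thresholds, open points did not, and the vertical bar is the list's median, which ranged from -0.49 for myosin folding partners to 3.11 for clients and scaffolds.

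Of 12 tested paralogs of these chaperones outside the named genes, none rose and 2 fell, with a median log2 fold change of 0.27. SMYD2, a lysine methyltransferase of the SMYD family, fell from 35.3 ± 0.727 to 13.7 ± 0.366 CPM (log2 fold change -1.37, SE 0.07, edgeR adjusted p = 7.82e-08). HSPB9, a small heat shock protein of the testis, was also called, on 1, 8 and 8 counts in GM samples and 1, 0 and 0 counts in DM samples, and is named after its values were seen. It lost its call in 7 of 12 alternatives, which were DESeq2, the null of a 2-fold change, the replicate block and the fits without GM2, GM3, DM2 or DM3. CRYAA was not listed.

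In the list of heat shock factors, HSF4 was the gene called. The 5 tested genes of the list were HSF1, HSF2, HSF4, HSF5 and HSBP1, a protein that binds HSF1. The counts of HSF4 were 222, 258 and 222 in GM samples and 1698, 1717 and 2353 in DM samples. It rose from 5.80 ± 0.427 to 53.6 ± 8.82 CPM (log2 fold change 3.21, SE 0.13, edgeR adjusted p = 1.27e-08). HSF1, the main stress factor, had 102 ± 5.60 and 90.6 ± 5.99 CPM (log2 fold change -0.17, edgeR adjusted p = 0.0603), and HSF2 had a log2 fold change of 0.11. Of 13 muscle transcription factors tested, 3 rose and 2 fell, with a median log2 fold change of -0.21. MEF2C, a partner of the myogenic factors, rose from 4.63 ± 1.32 to 75.3 ± 23.6 CPM (log2 fold change 4.02, SE 0.25, edgeR adjusted p = 2.49e-07), and MYF6, a late myogenic factor, rose from 0.519 ± 0.0770 to 8.22 ± 0.871 CPM (log2 fold change 3.97, SE 0.20, edgeR adjusted p = 5.87e-08). MYOG, the myogenin gene, rose by 1.66 on the log2 scale, and MYF5, an early myogenic factor, fell by 2.70. HSF1, HSF2, MYOG and MYF5 were chosen for mention after their values were seen.

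The samples at the extremes of a group were often the same across the genes. Of the 6 genes that rose, 5 were lowest in GM2, all but HSPB6, and 5 were highest in DM3, all but HSPB8. HSPB7, although it fell, and BAG3, which was not called, were also highest in DM3 among the DM samples, so that 7 of the 9 genes peaked there. The share of all tested genes with the same extremes was not computed. These counts therefore cannot be told apart from a trait of the whole library, and DM3 was the DM sample farthest from the others. In GM samples the highest level was 2.36 times the lowest for UNC45B, 1.81 times for SMYD1 and 1.80 times for HSPB8, and 1.09 times for HSPB1. The summed skeletal muscle markers were likewise lowest in GM2 (3210, 2854 and 3457 CPM in GM1, GM2 and GM3) and highest in DM3 (7521, 7831 and 10490 CPM in DM1, DM2 and DM3). This sum is carried by abundant contractile genes. Of the 11 markers, 7 were highest in DM3, and PAX7, MYOD1 and MYOG were lowest there. The mean deviation of the markers in DM3, which averages over these opposite moves, was 0.05 on the log2 scale, against 0.44 for SMYD1. Their part in the spread of the chaperone genes was not tested. Without DM3 the log2 fold change of HSPB7 was -3.14 and that of SMYD1 was 3.15, and without GM2 that of SMYD1 was 3.20.

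**Figure D5:**
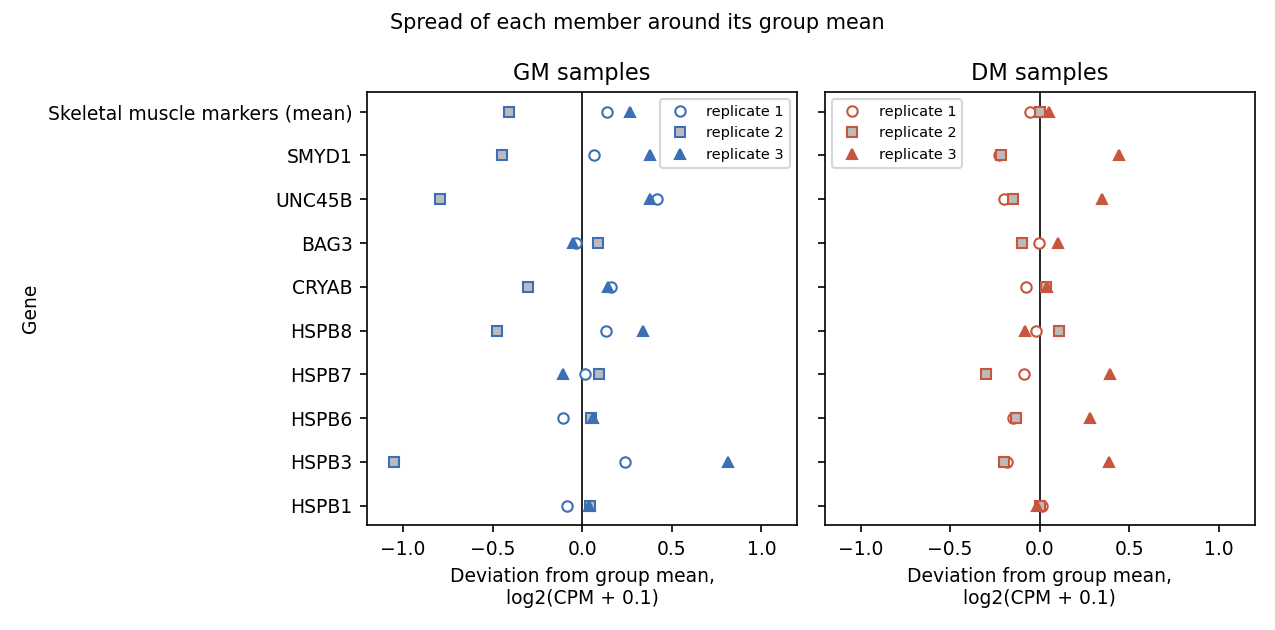
Deviation of each sample from its group mean on the log2(CPM + 0.1) scale (x axis), for the 9 genes and the mean of 11 skeletal muscle markers (y axis), with GM samples at the left and DM samples at the right. GM2 lies to the left of the other GM samples for UNC45B, HSPB3, HSPB8, SMYD1, CRYAB and the markers. DM3 lies to the right of the other DM samples for SMYD1, HSPB7, HSPB3, UNC45B, HSPB6 and, by less, BAG3, the markers and CRYAB.

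Several of these chaperones are also expressed in cardiac and smooth muscle, and markers of other cell types were counted beside them. Of 8 cardiac markers, 3 were tested and all of them rose, MYL4, MYH6 and TNNI3. MYL4 and MYH6 are also known from developing skeletal muscle, and TNNI3 was at 0.814 ± 0.918 CPM in DM samples. NPPB and MYL7 had 0 counts in every sample, and NPPA, NKX2-5 and HAND2 were too low to test. Of 8 smooth muscle markers, LMOD1 rose, SMTN and, at under 1 CPM, MYOCD fell (the latter not without GM1) and 5 did not pass both thresholds, and their summed level was 4296 to 4476 CPM in GM samples and 3366 to 3840 CPM in DM samples. Most fibroblast markers were abundant and higher in DM samples. Of 7 tested, 5 rose, among them DCN (from 447 ± 15.7 to 2311 ± 608 CPM) and COL3A1, and the sum was 24982 to 25199 CPM in GM samples and 77336 to 97240 CPM in DM samples. The sum was lowest in DM3 among the DM samples. It was carried by COL1A1 (15288 CPM in GM and 44329 CPM in DM samples) and COL3A1 (8299 and 39253 CPM). PDGFRA and DPT did not pass the fold minimum (log2 fold changes 0.58 and 0.96), and TCF21 was too low to test. COL1A1, PDGFRA, DPT and TCF21 were chosen for mention after their values were seen. Markers of adipocytes (6 tested, 2 higher and 1 lower), endothelium (6 tested, 1 higher and 2 lower) and immune cells (4 tested, 1 higher and 1 lower) were at low levels. Each of these lists summed by itself to at most 13.6 CPM in any sample. PPARG, CIDEC, TEK, CD14 and CD68 were the genes that passed both thresholds there at a mean of at least 1 CPM, and CD68 lost its call in 5 of 14 alternatives, among them without GM1, GM2 or DM3. The part of any of these cell types in the changes of the chaperone genes was not tested.

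The 9 genes lie on 9 chromosomes of the deposited annotation, which uses cattle Ensembl identifiers and names no genome build. On the forward strand are HSPB1 (ENSBTAG00000011969, chromosome 25, 34858435 to 34861074), HSPB7 (ENSBTAG00000010940, chromosome 2, 136635160 to 136637353) and BAG3 (ENSBTAG00000013641, chromosome 26, 40118556 to 40141989). On the reverse strand are HSPB3 (ENSBTAG00000022714, chromosome 20, 24659525 to 24660204), HSPB6 (ENSBTAG00000018598, chromosome 18, 46654243 to 46656762), HSPB8 (ENSBTAG00000001303, chromosome 17, 58405437 to 58418688) and CRYAB (ENSBTAG00000000434, chromosome 15, 22566929 to 22570256). The reverse strand also holds UNC45B (ENSBTAG00000002898, chromosome 19, 15233409 to 15265756) and SMYD1 (ENSBTAG00000021120, chromosome 11, 47799217 to 47848713). Each is typed as a protein-coding gene, and no other listed gene overlaps any of them.

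Of the nearest listed neighbours at either side of the 9 genes, 12 were tested and 4 were called (33.3%, beside 25.3% of all tested genes). The closest neighbour of CRYAB is an unnamed protein-coding gene, ENSBTAG00000000440, on the opposite strand (chromosome 15, 22571245 to 22572575), 988 bases away. Its counts were 337, 216 and 286 in GM samples and 1215, 1541 and 2139 in DM samples, and it rose from 6.95 ± 1.55 to 45.3 ± 11.3 CPM (log2 fold change 2.70, SE 0.20, edgeR adjusted p = 7.52e-07). The RefSeq annotation of the buffalo assembly NDDB_SH_1 places HSPB2 next to CRYAB, but the deposited table gives the unnamed gene no symbol and its identity was not established. Beside HSPB7 lies ENSBTAG00000034674 (chromosome 2, 136618334 to 136630339, reverse strand), 4820 bases away, which fell at a low level with 38, 41 and 27 counts in GM samples and 5, 4 and 8 counts in DM samples (log2 fold change -2.44, SE 0.43, edgeR adjusted p = 0.000551). The other neighbour of CRYAB, MGC134087, was called as higher on 4, 1 and 2 counts in GM samples and 11, 4 and 14 counts in DM samples (log2 fold change 2.16, SE 0.75, edgeR adjusted p = 0.0264). NLE1, the neighbour of UNC45B on the opposite strand and 8041 bases away, went against it with a log2 fold change of -1.42. LIN37 and PROSER3, at either side of HSPB6, did not pass both thresholds. These neighbours were chosen for mention after their values were seen.

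In the deposited mRNA table the 9 genes had 10 transcripts, of which 7 passed both thresholds, beside 25.6% of all tested mRNAs. For 8 genes the single transcript held the same counts as the gene, so that the transcript adds no new measurement. HSPB1 had the other 2 transcripts, of 809 and 853 bases, with log2 fold changes of 0.22 (edgeR adjusted p = 0.00929) and 0.18 (edgeR adjusted p = 0.0232). Their summed counts exceeded the gene's count by 53.7 to 58.4%, so reads were counted for both, and the 2 isoforms could not be told apart.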

How the data were processed

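PolyA-Seq data of 3 GM and 3 DM samples were taken from 2 tables deposited by the authors, for genes and mRNAs. Their count columns hold raw read counts made by the authors, and their RPKM columns were scaled by the authors by annotated length and summed counts. The methods name HISAT2 and the buffalo genome, the submitters' processing notes list Bowtie 0.12.2 with mm8 and mm9, and the tables carry cattle Ensembl identifiers, so the build behind the values is not known. The deposited lists of differentially expressed features hold the authors' own log2 fold changes, p-values and q-values and were not used, nor was the ncRNA table.

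Counts were tested with the quasi-likelihood F test of edgeR 4.0.16 (R 4.3.3, TMM factors 0.948 to 1.04) on features with at least 10 counts over 6 samples. Standard errors were taken from the F statistic, and intervals are 95%. CPM were computed on TMM-scaled library sizes. Ratios and pool shares used exact two-sided permutation tests. In simulated gene counts, 200 of 200 genes changed 4-fold were recovered with 2 false calls. The simulation had the same dispersion for all genes, no outlying sample and no changed gene at very low counts. It therefore does not test such cases in the real data. Alternatives were DESeq2 1.42.0, other scalings and filters, a null of 2-fold change, replicate number as a block and each sample left out. Python 3.11.15 (scipy 1.17.1, pandas 2.3.3) served for the tables and matplotlib 3.10.9 for the plots.

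The genes, the 13 lists around them and the comparisons were chosen with earlier results of these data known. Named were every listed member, its transcripts, overlapping genes, ratio partners and, per list, the 2 called genes of largest change with a mean of at least 1 CPM. Of the 5 planned ratios, those with HSPB2 were not run. No sequences were printed, since the reference used here held none.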

Additional observations from a re-analysis of the deposited data

How the results depend on the processing

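All 124 alternative values of the log2 fold changes of the 9 genes kept their direction, and no gene gained or lost its call. The null of 2-fold change reuses the log2 fold changes of the main fit, so its values could not differ in direction. The adjusted p alone passed 0.05 for HSPB1 with library size alone (0.0633) and for BAG3 without GM2, DM1 or DM2 and with the RPKM filter (0.0767 to 0.112), and was 1 for both against a null of 2-fold change. HSPB3 ranged from 5.60 to 7.04, HSPB7 from -3.14 to -2.77 and UNC45B from 1.47 to 1.97. HSPB3 and SMYD1 gave no value when an RPKM of at least 1 was required in more than 50% of samples, and 5 of the 7 called genes were then called. Of all tested genes 3936 were called, against 2197 with that filter and 2293 when the null was a 2-fold change, where a stricter rule lets fewer genes pass. Leaving out each sample in turn gave 3647 to 3995 called genes, and 50 to 56 of the list genes against 54. With replicate number as a block, 3837 genes, 53 list genes and 7 of the 9 chaperone genes were called. Same-numbered samples showed no shared deviation over the tested genes (correlation -0.0218 to -0.00756), which cannot exclude that they were paired. Per sarcomeric myosin without MYH3, chosen after seeing the data, GM over DM was 6.31 for UNC45B, against 2.13, and 2.16 for SMYD1, against 0.733. MYH3 made up 58.7 RPKM of the mean sum of 64.7 in GM samples and 327 of 453 in DM samples. Of the 54 called list genes, 42 kept their call in every alternative that tested them, 12 lost it in at least 1 (HSPB9, MAP1LC3A, AHSA1, NES, MYOCD, SMTN, LMOD1, TNNI3, CIDEC, CDH5, VWF and CD68), and none changed sign.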
